A study of Drosophila melanogaster with 4 samples.

Results

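Chromatin insulator protein genes were followed in adult male Drosophila melanogaster with mutations in Ago2. The group consisted of 6 genes picked by name, su(Hw), Cp190, mod(mdg4), CTCF, BEAF-32 and Trl, out of 13990 genes in the deposited expression table. All 6 passed the filter on low values, as did 10872 genes in total. The study sequenced mRNA from 4 genotypes. The V966M heterozygote carried the V966M allele over the balancer chromosome TM3 with the markers twi-GFP, Sb and Ser, and the V966M homozygote carried that allele on both chromosomes. The 51B heterozygote carried the 51B allele over a TM3 with the markers Ser and y+, and the 51B homozygote carried 51B on both chromosomes. All flies were males of 0 to 16 hr grown at 25 °C. TM3 is a multiply inverted chromosome 3 kept over a mutation because it blocks recombination. No wild-type sample was among the 4, so the heterozygotes, which also carry a mutant allele, served as controls. Only the heterozygotes carry TM3, so an effect of the second mutant allele and an effect of the balancer cannot be told apart.

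Insulators are DNA elements that separate neighbouring domains of gene regulation, either by blocking an enhancer from reaching a promoter or by halting the spread of repressive chromatin. In Drosophila they are bound by sequence-specific proteins, among them Su(Hw), CTCF, BEAF-32 and the GAGA factor encoded by Trl. Those proteins recruit shared partners, chiefly CP190 and isoforms of Mod(mdg4), which carry a BTB domain for contacts between proteins. AGO2, an Argonaute protein guided by small interfering RNAs, has been reported to bind chromatin together with CTCF and CP190. The question put to the data here was whether the mRNA of the insulator proteins themselves differed with the Ago2 genotype.

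None of the 6 genes differed by 2-fold in any of 4 comparisons between genotypes. A 2-fold difference with intervals apart was also rare over all analysed genes. It was seen for 0.414% of them in V966M, 2.81% in 51B, 3.04% between heterozygotes and 5.53% between homozygotes. The largest difference among the 6 was that of CTCF, with 5.02 FPKM for the 51B heterozygote against 7.97 FPKM for its homozygote, a ratio of 1.59 with overlapping intervals. Here FPKM stands for sequenced fragments per length of transcript and per size of the library, and the interval is the one deposited beside each value, of a level that the table does not state. Each genotype had 1 value per gene and no replicates, so genotypes were compared without a test or p-value. Of 24 comparisons of a member between genotypes, 7 had intervals that lay apart on the deposited scale, where 8.49% of all analysed genes did so in V966M, 12% in 51B, 21% between heterozygotes and 18.2% between homozygotes. Once the genotypes had been brought to a common scale by median ratios, 0 of the 24 had intervals apart, where the shares of all genes were 1.93%, 11.6%, 16% and 16.9% in the same order. With 6 members in a comparison, a count of 0 is close to those shares.

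The targeted gene was read first as a check of the labels. AGO2 stood at 150.0 FPKM in V966M heterozygotes, 101 FPKM in V966M homozygotes, 46.5 FPKM in 51B heterozygotes and 6.33 FPKM in 51B homozygotes. A point mutation such as V966M need not alter the mRNA level, so AGO2 checks the label of 51B only. Markers of males were present in every genotype, and the summed level of roX1, roX2, Acp26Aa, Acp70A, Mst87F and dj lay between 680 and 1051 FPKM, most of it from Mst87F. The female list, Yp1, Yp2, Yp3 and Cp36, summed to between 7.39 and 9.87 FPKM, nearly all of it from Yp3. Among genes with at least 5 FPKM, the deposited interval reached a median of 15.7% to 29.2% of the value to either side and was widest in the 51B homozygote and narrowest in the 51B heterozygote. Summed FPKM ran from 493829 in the 51B heterozygote to 645245 in the V966M heterozygote. Of the 10872 analysed genes, 10184 were lower in the V966M homozygote than in its heterozygote as deposited. Within 51B, 6448 were higher in the homozygote and 4424 lower. A difference in FPKM can thus be shared by many genes, to an extent that varied between comparisons.

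**Figure D1:**
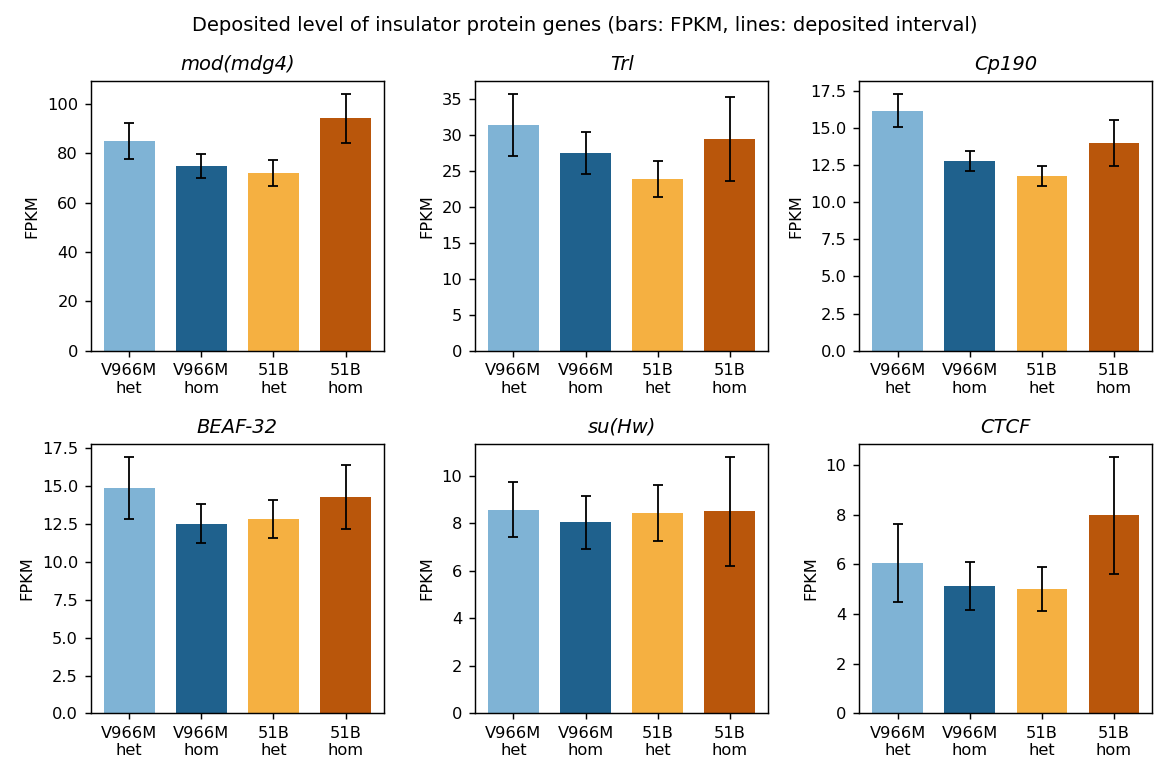
Deposited FPKM of each insulator protein gene (vertical axis, starting at 0 and scaled per panel) in the 4 genotypes (horizontal axis; het, heterozygote; hom, homozygote), 1 value each, with lines for the deposited interval. The bars of su(Hw) are nearly level, from 8.05 to 8.57 FPKM, whereas those of Cp190 run from 11.7 to 16.2 FPKM.

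The shared partners are described first. The gene mod(mdg4) encodes a large family of BTB proteins that differ in their C-terminal ends, one of which is part of the complex on the gypsy insulator. It maps to 3R, at a deposited locus of 17177331 to 17203121 of build dm3. The V966M heterozygote had 85.1 FPKM of it (interval 77.6 to 92.5), the V966M homozygote 74.8 FPKM (69.9 to 79.7), the 51B heterozygote 72.1 FPKM (66.9 to 77.4) and the 51B homozygote 94.2 FPKM (84.2 to 104). The 51B homozygote was the highest and its interval overlapped that of the V966M heterozygote only. Within 51B the homozygote stood at 1.31 times the heterozygote, and the bounds of both intervals allowed ratios from 1.09 to 1.56. In V966M the ratio of homozygote to heterozygote was 0.879, with bounds of 0.755 and 1.03 and overlapping intervals.

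Transcripts of mod(mdg4) are joined by trans-splicing from separately transcribed pieces, and the table lists 8 start-site groups for it. The Ensembl annotation of the later build BDGP6 gives it 22 transcripts. The deposited table holds 1 value for the gene, so isoforms were not separated. The same locus holds 8 other table entries, CG42769 and CG42771 to CG42777, of which the highest was CG42777 with 4.49 to 6.28 FPKM and the status LOWDATA in every genotype. The sources used here do not say how fragments were shared out between these entries and mod(mdg4).

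Cp190 encodes a BTB and zinc finger protein that joins Su(Hw), CTCF and BEAF-32 complexes. Like mod(mdg4), it had intervals apart in 3 of the 4 comparisons on the deposited scale. It maps to 3R, at a locus of 11094405 to 11100927. Its level was 16.2 FPKM (15.0 to 17.3) for the V966M heterozygote, 12.8 FPKM (12.1 to 13.5) for the V966M homozygote, 11.7 FPKM (11.1 to 12.4) for the 51B heterozygote and 14.0 FPKM (12.4 to 15.5) for the 51B homozygote. The V966M heterozygote lay above the V966M homozygote and the 51B heterozygote without overlap. The homozygote was at 0.792 times the heterozygote in V966M, with bounds of 0.701 and 0.896, and at 1.19 times in 51B, with bounds of 1.001 and 1.40. In 51B the intervals missed each other by 0.0164 FPKM.

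The interval of Cp190 was also among the narrowest. Between 1.92% and 4.87% of genes with at least 5 FPKM had a narrower one relative to their level, depending on the genotype. For mod(mdg4), also apart in 3 of the 4 comparisons, that share was 3.57% to 5.92%. In V966M, 34.6% of all genes had a more negative change than Cp190, while 8.34% of genes were lower in the homozygote with intervals apart. Its change thus lay within the bulk of those of all genes, and its interval at the narrow end.

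Trl encodes the GAGA factor, which binds GA-rich repeats, keeps promoters accessible and acts in some insulators. It maps to 3L, at a locus of 14741029 to 14754944. The V966M stock had 31.4 FPKM (27.1 to 35.8) as a heterozygote and 27.6 FPKM (24.7 to 30.5) as a homozygote, and the 51B stock 23.9 FPKM (21.4 to 26.4) and 29.5 FPKM (23.7 to 35.4). The heterozygotes did not overlap each other, with V966M at 1.32 times 51B and bounds of 1.03 and 1.67, and every other pair compared overlapped. CG42507 shares the locus and had 23.1, 19.5, 17.5 and 29.0 FPKM in the same order of genotypes, also lowest in the 51B heterozygote.

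The DNA-binding proteins that remained had intervals that overlapped in all 4 comparisons. BEAF-32, whose protein binds near many promoters of housekeeping genes, is the member outside chromosome 3 and lies on 2R, in a locus from 10657104 to 10660135. The V966M heterozygote and homozygote had 14.9 FPKM (12.8 to 17.0) and 12.5 FPKM (11.2 to 13.8), and those of 51B had 12.8 FPKM (11.6 to 14.1) and 14.3 FPKM (12.2 to 16.4). The 4 values spanned a ratio of 1.19 from lowest to highest, and 4.07% of all genes had a smaller span.

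The gene su(Hw) encodes the zinc finger protein that binds the gypsy insulator, and lies on 3R in a locus from 10128178 to 10134309. V966M heterozygotes had 8.57 FPKM (7.42 to 9.72), V966M homozygotes 8.05 FPKM (6.93 to 9.17), 51B heterozygotes 8.43 FPKM (7.24 to 9.61) and 51B homozygotes 8.51 FPKM (6.22 to 10.8). No genotype stood out. The highest value was 1.06 times the lowest, a span that 0.129% of all genes stayed under, where the median span of all genes was 1.53. That near constancy belongs to the deposited scale. In TPM, that is FPKM scaled so that each genotype sums to 1000000, su(Hw) ran from 13.3 TPM in the V966M heterozygote to 17.1 TPM in the 51B heterozygote, a ratio of 1.28. That sum takes in all 13990 genes, with the muscle gene Mhc listed at 0 in every genotype. Act88F, another muscle gene, is listed at 0 in the 51B homozygote and at 4421 to 6554 FPKM in the other genotypes.

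CTCF encodes the fly counterpart of the vertebrate insulator protein and marks boundaries within the bithorax complex. It maps to 3L, at a locus of 7341415 to 7349796 that it shares with qm. Its level in V966M was 6.05 FPKM (4.49 to 7.61) for the heterozygote and 5.13 FPKM (4.17 to 6.09) for the homozygote, and in 51B 5.02 FPKM (4.13 to 5.90) for the heterozygote and 7.97 FPKM (5.61 to 10.3) for the homozygote. The 51B homozygote was highest, and its interval overlapped that of each other genotype, by 0.298 FPKM in the case of its heterozygote. The bounds allowed the ratio within 51B to lie anywhere from 0.950 to 2.50. CTCF was the member with the widest intervals, 17.6% to 29.7% of the value to either side. Between 54.6% and 73.3% of genes with at least 5 FPKM had a narrower one, depending on the genotype. Since the level of the intervals is not stated, their overlap does not show that the levels were equal. Its neighbour qm went from 20.7 to 17.2 FPKM in V966M, heterozygote to homozygote, and from 16.3 to 16.2 FPKM in 51B, so that its level in the 51B homozygote was not the highest.

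The order of the 6 genes by level was nearly the same in every genotype. FPKM is scaled by transcript length, so levels can be compared between genes. Highest was mod(mdg4) and next Trl, in every genotype and without overlap between neighbours. Cp190 and BEAF-32 followed, overlapping in each genotype, with Cp190 the higher of them in both V966M genotypes and BEAF-32 the higher in both 51B genotypes. After them came su(Hw) and last CTCF, and their intervals overlapped in the V966M heterozygote and in the 51B homozygote. Among the 10872 analysed genes, mod(mdg4) had a level above 90.3% to 91.5% of them, and CTCF above 28.6% to 40.9%. The gene mod(mdg4) alone made up 52.5% to 55.9% of the summed FPKM of the group.

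Ratios within a genotype do not depend on its scale. For each unit of Cp190 there was 1.94 to 2.15 of Trl and 0.922 to 1.09 of BEAF-32. The ratio of mod(mdg4) to Cp190 was 5.26 for V966M heterozygotes, 5.85 for V966M homozygotes, 6.14 for 51B heterozygotes and 6.74 for 51B homozygotes. It was higher in the homozygote of each allele, with 1 value per genotype and no test. The ratio of su(Hw) to Cp190 was 0.530, 0.629, 0.717 and 0.609 in that order, higher in the homozygote of V966M and lower in that of 51B. CTCF stood at 0.374, 0.401, 0.427 and 0.570 of Cp190, again with the 51B homozygote at the top.

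**Figure D2:**
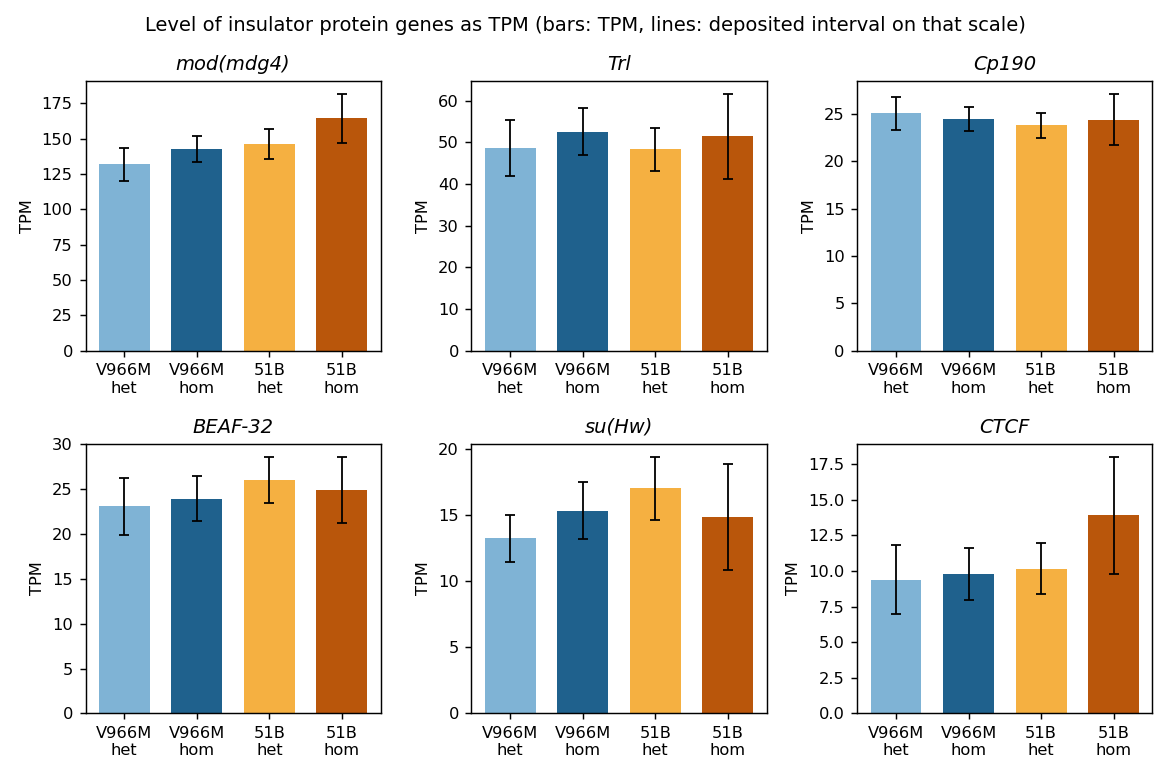
Level of each insulator protein gene in TPM (vertical axis, starting at 0 and scaled per panel) in the 4 genotypes, 1 value each, with lines for the deposited interval on the same scale. Cp190 is nearly level, from 23.8 to 25.0 TPM, and su(Hw) runs from 13.3 to 17.1 TPM.

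Homozygotes were compared with heterozygotes within each allele on the scale log2(FPKM + 1), which compresses differences between low values. Genes were called where they changed by 2-fold or more on that scale and their intervals lay apart. In V966M, 0 of the 6 were called, where 0.414% of all genes were. With intervals apart alone, Cp190 was lower (log2 change -0.31), 1 of 6, where 8.34% of all genes were lower. The changes of the other 5 ran from -0.23 for BEAF-32 to -0.08 for su(Hw), and the members' median was -0.19 beside -0.25 over all genes. For the rescaled values, every FPKM was divided by its genotype's median ratio to the geometric mean of the 4, which moved the median of all genes to -0.00462. The members' rescaled median was 0.06, Cp190 was at -0.06, and the other 5 turned positive. None of the 6 had intervals apart then, where 1.93% of all genes had.

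In 51B, 0 of the 6 were called, where 2.81% of all genes were. With intervals apart alone, mod(mdg4) (log2 change 0.38) and Cp190 (0.23) were higher in the homozygote, 2 of 6, where 7.77% of all genes were higher. All 6 changes were positive, from 0.01 for su(Hw) to 0.58 for CTCF, with a median of 0.26 beside 0.07 over all genes. CTCF exceeded 92.5% of all genes in its change and mod(mdg4) 82.1%. After rescaling the median of all genes was -0.04 and that of the members 0.14. CTCF then had 0.47, mod(mdg4) 0.25, Trl 0.17, Cp190 0.11, BEAF-32 0.03 and su(Hw) -0.10, and 0 of 6 had intervals apart, where 11.6% of all genes had. These are whole animals, so a change in the number of cells that express a gene and a change in RNA per cell cannot be told apart.

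Markers of neurons were also read. Of 5 listed, 3 were analysed. In 51B, n-syb and brp were higher in the homozygote with intervals apart on the deposited scale, brp also after rescaling. Of all genes, 7.77% were higher with intervals apart in 51B as deposited and 4.64% after rescaling. By summed FPKM brp overlapped too (log2 0.40), and none of the 3 had intervals apart. Rdl had a log2 change of 0.46 in 51B with overlapping intervals. In V966M the 3 had changes from -0.08 to -0.03 as deposited and from 0.18 to 0.23 after rescaling. By summed FPKM they ran from 0.20 to 0.25 in V966M, and their intervals overlapped on each of these scales. The 3 analysed genes summed to 103 FPKM for 51B heterozygotes, 160 FPKM for 51B homozygotes, 133 FPKM for V966M heterozygotes and 127 FPKM for V966M homozygotes. With Syt1, which has the status FAIL in every genotype, and elav, which has it in 2 of them, the sums were 144, 205, 202 and 177 FPKM, with no marker at 0. Of 6 markers of dividing cells, 5 were analysed and 0 had intervals apart in 51B, where 12% of all genes had as deposited. In 51B polo had the largest change (0.45), and the median of the 5 was 0.05 as deposited and -0.07 after rescaling. In V966M, CycA was lower with intervals apart on the deposited scale (-0.41), where 8.34% of all genes were lower, and overlapped after rescaling (-0.16). The median of the 5 in V966M was -0.15 as deposited. After rescaling it was 0.11, with CycA the only marker of the 5 below 0. The 6 summed to 72.9 FPKM for 51B heterozygotes, 86.3 FPKM for 51B homozygotes, 67.0 FPKM for V966M heterozygotes and 58.4 FPKM for V966M homozygotes. Early germline markers, vas, nos, bam, aub and piwi, summed to between 4.81 and 5.18 FPKM in all 4 genotypes. The 2 analysed, vas and aub, had changes between -0.06 and 0.08 as deposited. After rescaling, vas and aub had 0.16 and 0.25 in V966M and -0.07 and -0.14 in 51B, with overlapping intervals. Muscle markers could not be summed, because Mhc is listed at 0 in every genotype and Act88F is listed at 0 in the 51B homozygote, both with the status HIDATA there. Of the 5 muscle genes Tm2 alone was analysed, and in 51B it was lower with intervals apart after rescaling (-0.36) but not as deposited (-0.24). Of the 6 male markers, roX1 (log2 change -0.88), dj (-0.88) and Acp26Aa (-0.64) were lower with intervals apart in V966M as deposited, and roX1 also after rescaling (-0.61). Of all genes, 8.34% were lower with intervals apart in V966M as deposited and 1.21% after rescaling. In 51B none of the 6 had intervals apart as deposited, and after rescaling roX1 (-0.47), dj (-0.63) and Acp26Aa (-0.69) were lower with intervals apart. Of all genes, 4.28% were lower with intervals apart in 51B as deposited and 6.96% after rescaling. The median of the male list was -0.55 in V966M and -0.42 in 51B as deposited, and -0.28 and -0.54 after rescaling. The part of the marker differences in the members' levels was not tested.

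The other comparisons set the stocks against each other at matched zygosity. They use the same libraries as the comparisons within alleles and are not independent of them. Effects of the allele, of the stock and of the library cannot be told apart in them. The heterozygotes also differ in the TM3 balancer they carry. Between heterozygotes, 0 of 6 were called, where 3.04% of all genes were, and Cp190 (log2 change 0.43), Trl (0.38) and mod(mdg4) (0.23) were higher in V966M with intervals apart, where 19% of all genes were higher. For mod(mdg4) the gap between the intervals was 0.178 FPKM. The members' median was 0.23 and that of all genes 0.26. After rescaling, the medians were -0.03 and 0.02, and 0 of 6 had intervals apart, where 16% of all genes had. Between homozygotes, 0 of 6 were called, where 5.53% of all genes were, and mod(mdg4) was lower in V966M (-0.33) with intervals apart, where 10.8% of all genes were lower. CTCF had -0.55 with overlapping intervals. The rescaled values were -0.21 and -0.45, and 0 of 6 had intervals apart, where 16.9% of all genes had.

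**Figure D3:**
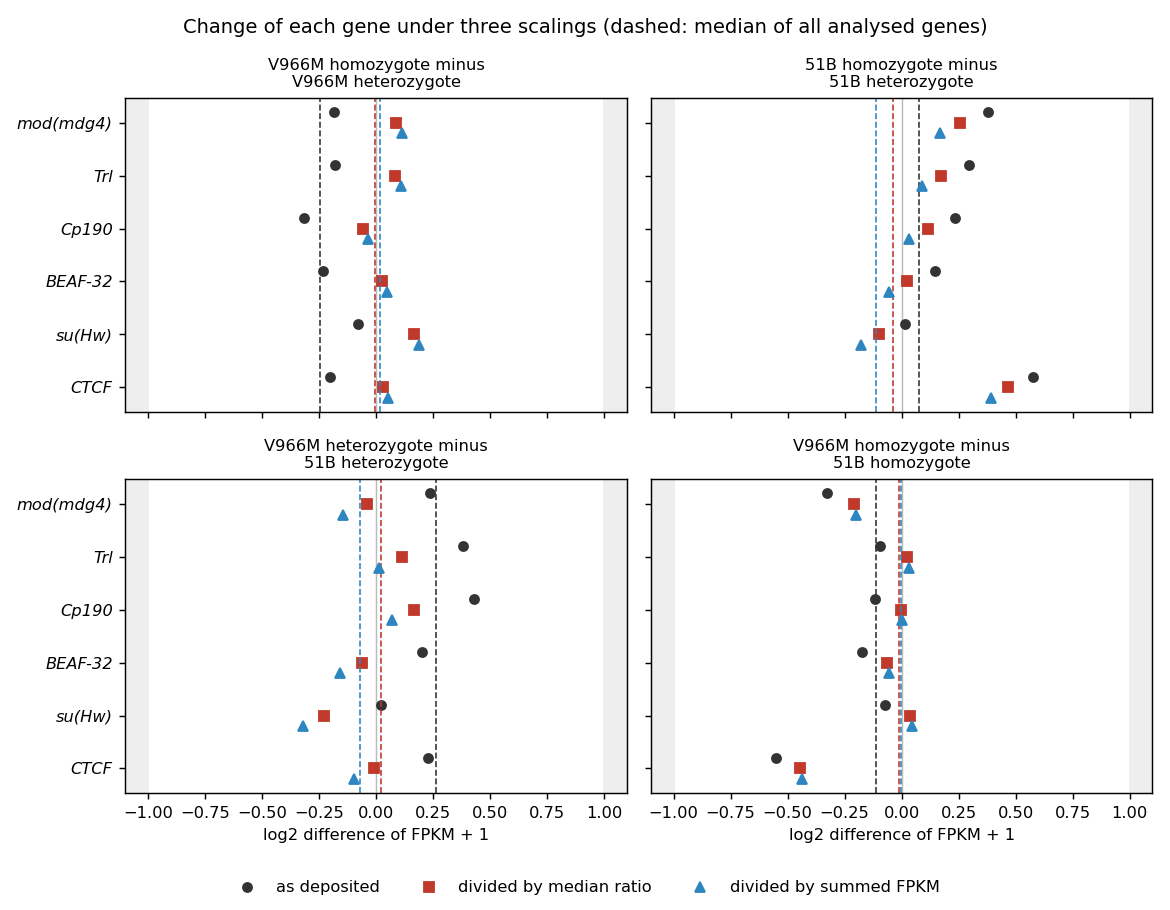
Log2 difference of FPKM + 1 for each insulator protein gene (horizontal axis) in the 4 comparisons (panels), as deposited (circles), divided by the median ratio (squares) and divided by summed FPKM (triangles), with dashed lines at the median of all analysed genes in the same colour and grey bands at differences of 2-fold or more. No symbol reaches a band, and the circle farthest from 0 is CTCF within 51B at 0.58.

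Of the 6 genes, 5 lie on chromosome 3, which holds Ago2 and differs between heterozygote and homozygote by the balancer. The median log2 change over the 4762 analysed genes of 3L and 3R was -0.24 in V966M and 0.07 in 51B. It was -0.25 and 0.08 over the other 6110 genes, which include entries such as vtd that are listed under 3LHet. Rescaling on genes outside chromosome 3 alone, with such entries left out too, also gave 0 of 24 member comparisons with intervals apart. The shares of all genes were then 1.93%, 11.6%, 16.1% and 16.9%. Division by summed FPKM left 0 of 24 as well, where the shares were 2.01%, 12.8%, 17.9% and 16.8%.

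Genes of insulator complexes other than the 6 were read from 3 lists, chosen for their known roles. Of 11 other boundary DNA-binding proteins, 9 were analysed. There were 0 calls in either allele as deposited, where 0.414% of all genes were called in V966M and 2.81% in 51B. The median log2 change of the 9 was -0.25 in V966M beside -0.25 over all genes, and 0.02 beside -0.00462 after rescaling. In 51B that of the 9 was 0.19 beside 0.07, and 0.09 beside -0.04 after rescaling. The gene psq encodes a BTB protein that binds GA repeats as the GAGA factor does, and was the one whose intervals lay apart in both alleles. The V966M heterozygote had 31.2 FPKM of psq, the V966M homozygote 26.1 FPKM, the 51B heterozygote 20.2 FPKM (19.3 to 21.0) and the 51B homozygote 32.4 FPKM (26.9 to 37.9). The 51B heterozygote was the lowest, and the difference within 51B (log2 0.66, rescaled 0.54) kept its intervals apart after rescaling. The gene dwg, which encodes the insulator protein Zw5, went from 4.61 FPKM (51B heterozygote) to 7.36 FPKM (51B homozygote) and from 5.94 to 4.77 FPKM in V966M, with overlapping intervals. The gene pita, another zinc finger boundary protein, was higher in the 51B homozygote with intervals apart on the deposited scale (0.52) and overlapped after rescaling. The Elba genes Bsg25A and CG9883 were below the filter, at 0.701 FPKM or less.

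Of 13 cofactors, 12 were analysed, with 0 calls as deposited, where 0.414% of all genes were called in V966M and 2.81% in 51B. Their median was -0.24 in V966M beside -0.25 over all genes, and 0.01 beside -0.00462 after rescaling. In 51B it was 0.21 beside 0.07, then 0.08 beside -0.04 after rescaling, and -0.00443 beside -0.11 by summed FPKM. In V966M, Chro and JIL-1 were lower with intervals apart as deposited, where 8.34% of all genes were lower, and both overlapped after rescaling. In 51B, fs(1)h and l(3)mbt were higher with intervals apart as deposited. Of all genes, 7.77% were higher with intervals apart in 51B as deposited and 4.64% after rescaling. The gene fs(1)h encodes a bromodomain protein found at insulator sites, and stood at 16.0 FPKM (13.9 to 18.0) in 51B heterozygotes against 27.0 FPKM (18.7 to 35.2) in homozygotes, overlapping after rescaling. The gene l(3)mbt encodes a repressor that shares many sites with insulator proteins, and had 10.2 FPKM (9.61 to 10.8) and 14.2 FPKM (13.4 to 15.0), with intervals apart also after rescaling (log2 0.33). Chro, a chromodomain partner of CP190, was lower in the 51B homozygote with intervals apart after rescaling (-0.23) and by summed FPKM (-0.31) but not as deposited. Of all genes, 6.96% were lower with intervals apart in 51B after rescaling and 9.58% by summed FPKM. The gene smt3, which encodes the SUMO peptide attached to CP190 and Mod(mdg4), went from 113 to 82.4 FPKM in V966M, heterozygote to homozygote, and from 78.3 to 90.3 FPKM in 51B, with overlap in each allele. Rm62, an RNA helicase reported with CP190, was not analysed, since the 51B homozygote has the status FAIL for it.

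Cohesin and condensin genes had changes from -0.53 to 0.07 in 51B on the deposited scale. Of 6 listed, 5 were analysed, with medians as deposited of -0.26 in V966M and -0.09 in 51B. There were 0 calls, where 0.414% and 2.81% of all genes were called. In V966M the median was -0.02 after rescaling and 0.01 by summed FPKM, beside -0.00462 and 0.02 over all genes. In 51B it was -0.20 and -0.27, beside -0.04 and -0.11 over all genes, and the highest of the 5 was at -0.03 and -0.10. None of the 5 had intervals apart in 51B as deposited or after rescaling, and by summed FPKM vtd was lower with intervals apart (log2 -0.71). The gene vtd, which encodes the cohesin subunit Rad21, went from 6.82 FPKM (V966M heterozygote) to 3.41 FPKM (V966M homozygote) and from 4.32 to 2.67 FPKM in 51B. Its intervals lay apart in V966M on the deposited scale (log2 change -0.82) and overlapped after rescaling (-0.60). Cap-H2, a condensin subunit gene, was lower in V966M in the same way, with 3.18 and 2.23 FPKM. Of all genes, 8.34% were lower in V966M with intervals apart as deposited. In 51B, 12% had intervals apart as deposited, 11.6% after rescaling and 12.8% by summed FPKM. Nipped-B, the cohesin loader gene, was not analysed because of the status FAIL in the 51B homozygote.

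**Figure D4:**
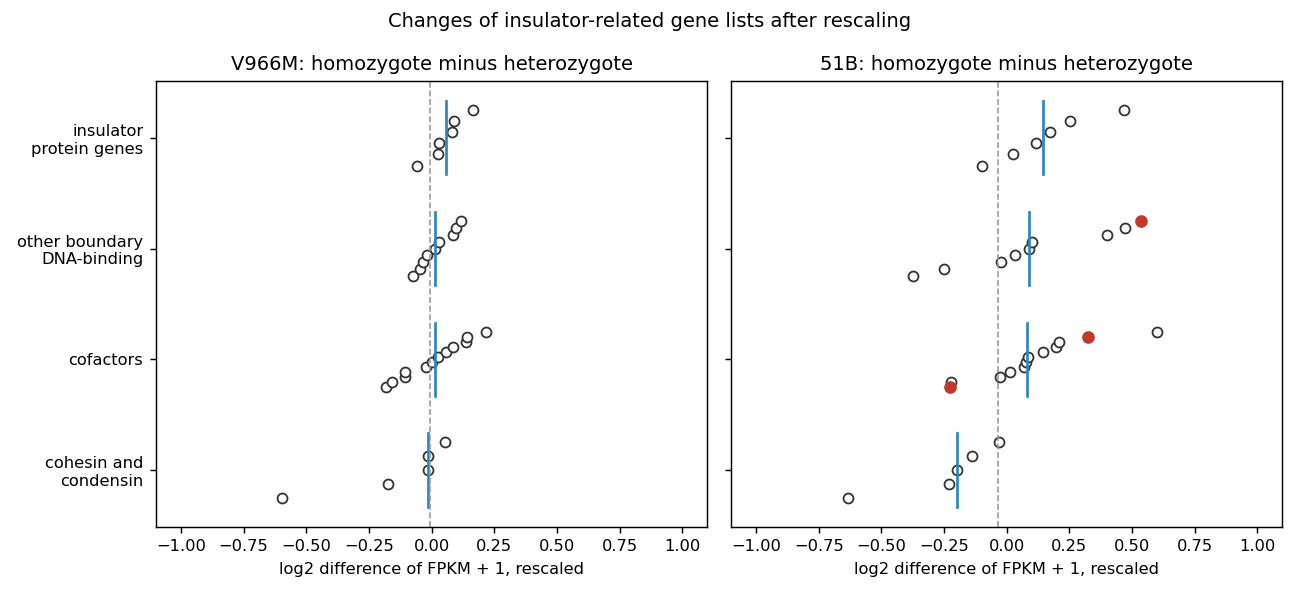
Rescaled log2 difference of FPKM + 1 between homozygote and heterozygote (horizontal axis) for each analysed gene of the insulator group and of 3 related lists (rows), in V966M (left) and 51B (right). Filled points have deposited intervals apart after rescaling, blue lines are list medians and the dashed line is the median of all genes. No insulator gene is filled, and psq, l(3)mbt and Chro are the filled points in 51B.

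The genes whose pattern over the 4 genotypes was most like that of each member were found by the Euclidean distance between log2(FPKM + 1) values after each gene's mean was subtracted, among 5135 genes with a mean of at least 5 FPKM and a locus of their own. For Cp190 they were Ard1 (distance 0.00827) and TfIIA-S (0.0266). For mod(mdg4) they were CG10209 (0.0137) and ari-2 (0.0143), for Trl CG12091 (0.0169) and CG4752 (0.0266), and for BEAF-32 Su(fu) (0.0105) and CG8635 (0.0138). For CTCF they were CG12084 (0.0194) and eIF-4a (0.0288), and for su(Hw) CG12007 (0.0267) and CG7148 (0.0349). Each of these was nearer than any other member was. Among the members themselves, Cp190 and Trl were the closest pair (0.104) and su(Hw) and CTCF the farthest apart (0.429). With 4 points per gene, likeness is a description only.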

How the data were processed

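The deposited table gives 1 FPKM value with a lower and an upper bound and a status for each gene and genotype, per the file headers. The authors' tools were TopHat and Cufflinks and the build was dm3, per the submitters' processing notes. Tool versions, annotation, strand setting and interval level: not given in the sources used here. Per the design text each genotype was run in 2 sequencing replicates, but only 1 value per genotype is in the table, so n = 1 and no comparison has a replicate check. FPKM carries no counts, so depth is unknown, and the deposited interval was used as the measure of precision.

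Analysed were 10872 genes with a mean of at least 1 FPKM, out of 13197 whose status was OK in each of the 4 genotypes. A pseudocount of 1 FPKM was added before log2 ratios were formed. A call needed a 2-fold change and intervals apart. Bounds of a ratio are the lower bound of one genotype over the upper bound of the other and the reverse. Rescaling used median ratios to the geometric mean, with factors of 1.13 (V966M heterozygote), 0.936 (V966M homozygote), 0.932 (51B heterozygote) and 1.02 (51B homozygote), or by summed FPKM. Summed FPKM and TPM took in all 13990 genes, also those listed at 0 with the status HIDATA, which differ between genotypes. Python 3.11.15, numpy 2.4.6, pandas 2.3.3 and matplotlib 3.10.9 were used. Loci cover all overlapping genes of a cluster, and each member shares its locus with at least 1 other gene. Their starts were converted to count from 1, because, among 6669 genes alone at their locus, lengths equalled the reference for 1180 if starts counted from 0 and for 109 if from 1. CG3227 (insv) and Bsg25A (Elba1) were matched through RefSeq synonyms.

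The members, lists and rules were chosen with earlier results of these data known. Named genes were the members, in each list those called and the 2 with the largest change within an allele, and for each member the 2 genes most like it. Chosen after their values were seen were pita, Chro, JIL-1, l(3)mbt, Rdl, Acp26Aa, Syt1, elav, Rm62, Nipped-B, Mhc, Act88F, Bsg25A, CG9883 and genes sharing a member's locus.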

Additional observations from a re-analysis of the deposited data

Results flagged for a closer look

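Cp190 and psq were singled out because the homozygote was below its heterozygote in V966M and above it in 51B, each with intervals apart on the deposited scale. The difference between the alleles was not tested, since each genotype had 1 value. For Cp190 the log2 changes were -0.31 in V966M and 0.23 in 51B, which differ by 0.55. After rescaling they were -0.06 and 0.11, and after division by summed FPKM -0.03 and 0.03, with overlapping intervals on both scales. For psq the changes were -0.25 and 0.66, which differ by 0.91. After rescaling they were 0.02 and 0.54, and after division by summed FPKM 0.04 and 0.45, so the value in V966M was negative on the deposited scale alone among these 3.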

How the results depend on the processing

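The count of called insulator genes was 0 of 6 in each of the 4 comparisons under all 8 alternatives run, among them pseudocounts of 0.1 and 5 FPKM, a threshold of 1.5-fold, no filter and a mean of at least 5 FPKM. Some of these could not add a call. All 6 have a mean above 5 FPKM, the lowest being CTCF at 6.04 FPKM, so the filter settings left their values unchanged. A pseudocount of 5 FPKM can only shrink a change. Of all genes, 0.414%, 2.81%, 3.04% and 5.53% were called as deposited, in V966M, in 51B, between heterozygotes and between homozygotes. At 1.5-fold 329, 875, 1431 and 1547 of 10872 were called. Without the filter it was 49, 311, 344 and 612 of 13197, and with a mean of at least 5 FPKM 30, 260, 255 and 495 of 7967. With 6 members, a count of 0 is close to those shares. The alternative restricted to genes with a locus of their own gave no value for the members, since all 6 share theirs. The count with intervals apart, 1 in V966M, 2 in 51B, 3 between heterozygotes and 1 between homozygotes, became 0 in every comparison under each of 3 scalings, whose use for this count was chosen after the data were seen: the median ratio, summed FPKM, and the median ratio outside chromosome 3. Of all genes, 8.49%, 12%, 21% and 18.2% had intervals apart as deposited, 1.93%, 11.6%, 16% and 16.9% by the median ratio, and 2.01%, 12.8%, 17.9% and 16.8% by summed FPKM. Of 192 member changes under alternatives, 39 had another sign than as deposited, all under a scaling. The pseudocounts, the threshold and the filters cannot change a sign. The 39 thus lie among the 24 member changes under each of the 3 scalings. No paired analysis was possible because each genotype has 1 value and no replicate number.

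Counts over all genes moved more. In V966M 45 genes were called as deposited, 21 after rescaling, 20 by summed FPKM, 77 and 15 with pseudocounts of 0.1 and 5 FPKM and 329 at 1.5-fold. In 51B they were 306 as deposited, 164 with a pseudocount of 5 FPKM and 875 at 1.5-fold. Between heterozygotes 330 became 212 after rescaling, 146 with 5 FPKM and 1431 at 1.5-fold, and between homozygotes 601 became 303 and 1547 in the last pair. Rescaling changed the percentage higher among called genes in V966M (15.6% before, 61.9% after), in 51B (60.1%, 47.0%), between heterozygotes (90.0%, 63.2%) and between homozygotes (49.8%, 64.6%). By summed FPKM it was 65.0%, 37.6%, 47.1% and 65.7% in that order, so the majority between heterozygotes turned to lower.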
